A study of Mus musculus with 15 samples.

Results

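Plasma cells, which end the B lineage and secrete antibody, were sorted from mouse spleen by surface B220 and by how much they took up of the fluorescent glucose analogue 2NBDG, and their RNA was sequenced. The comparison described here was made within the cells gated as negative for 2NBDG, between those without surface B220 (B220-2NBDG-) and those with it (B220+2NBDG-). Sort labels alone decided which libraries entered it, 3 of each kind and so 6 of the 15 libraries of the series. All 6 came from spleens of untreated, unimmunized male C57Bl6/N mice aged 8 to 12 weeks, and no engineered allele or agent is named in the labels. Both subsets were gated as CD138-high, Ly6g- and CD11c-, were sorted in 2 rounds and held about 30000 cells. Plasma cells from bone marrow (BMPC, sorted as B220- 2NBDG+) and both spleen subsets with uptake (B220+2NBDG+, B220-2NBDG+), 3 libraries each from mice of the same strain, sex and age, served to estimate the spread and for the comparisons named as such. The replicates are described as biological, but whether each was 1 mouse or a pool is not given in the sources used here.

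B220 is the long form of the surface phosphatase CD45, encoded by Ptprc, in which the alternatively spliced exons 4, 5 and 6 are kept. B cells carry it, and it is lost as an activated B cell passes through a dividing plasmablast stage to a mature plasma cell. In that passage cells are known to stop dividing and to shut down the transcription factors and antigen-presenting MHC class II molecules of the B cell, while genes for antibody, for its J chain and for survival receptors such as BCMA come to dominate.

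Levels are given as TPM (a unit already divided by transcript length, so that levels of different genes can be compared), after immunoglobulin genes had been set aside and the rest rescaled to 1000000 per library. The libraries held an estimated 17324205 to 22393583 reads, of which 6508050 to 9929441 fell outside the immunoglobulin genes. The 11246 genes that reached 1 TPM in 3 or more of the 15 libraries were tested with limma on log2(TPM + 1). A gene is called higher or lower where the Benjamini-Hochberg adjusted p, over all tested genes, was under 0.05. Log2 fold changes are B220-2NBDG- over B220+2NBDG- on the log2(TPM + 1) scale, which understates the change of genes with low levels, and are followed by their standard error. Adjusted p-values below are limma's, except those named as exact. In bulk RNA, fewer cells of a kind and less of a transcript per cell cannot be told apart.

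One of the 6 libraries stood apart from its group. Across the tested genes, B220+2NBDG- replicate 3 correlated with the other 2 replicates of its group at r = 0.939 and 0.946, whereas the 13 other pairs of replicates within the 5 groups of the series gave 0.965 to 0.976 (genes are not independent replicates). Ptprc (chr1:138062861-138175708, GRCm38) was found at 281, 301 and 114 TPM in replicates 1 to 3 of B220+2NBDG- and at 182, 176 and 185 TPM in those of B220-2NBDG-, and was not called (log2 fold change -0.23 ± 0.30, adjusted p = 0.734). On its 3 full-length transcripts, the share of TPM on the one that keeps exons 4, 5 and 6 (129, 147 and 141 bases long), the form recognised as B220, was 96.6%, 94.6% and 44.5% in B220+2NBDG- and 49.7%, 65.5% and 44.7% in B220-2NBDG-. B220+2NBDG- replicate 3 thus lay at the B220- level in this check of the sort, while replicates 1 and 2 lay above all 3 B220- libraries. Over all Ptprc transcripts, short annotated fragments included, the share with the 3 exons was 39.3%, 44.7% and 30.4% against 20.6%, 31.3% and 20.2%, a difference of 14.1 percentage points (exact permutation test, two-sided, p = 0.2, n = 3 per group, where 0.1 is the smallest p possible). Replicate 3 was kept in its labelled group, and counts without it are given beside those that differ. Of genes whose products bind this part of the Ptprc transcript, Hnrnpll was under the level tested, and Hnrnpl and Ptbp1 were not called (adjusted p = 0.473 and 0.429).

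Sdc1, which encodes CD138, was found at 52.3, 36.1 and 96 TPM in B220+2NBDG- and at 76.8, 112 and 127 TPM in B220-2NBDG- (adjusted p = 0.273), so the groups overlapped. Ly6g did not exceed 4.11 TPM in these libraries and Itgax, which encodes CD11c, did not exceed 1.43 TPM. The plasma cell transcription factors Prdm1, Irf4 and Xbp1 were present in all 6 libraries and none was called: Prdm1 was at 44.1, 33.4 and 38.9 against 52.6, 40.9 and 63 TPM and Irf4 at 254, 197 and 209 against 332, 239.9 and 279 TPM. Immunoglobulin genes took 91.1%, 91.7% and 92.1% of the deposited TPM in B220+2NBDG- and 94.8%, 94.7% and 94.5% in B220-2NBDG-.

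In the comparison, 306 genes were called higher in B220-2NBDG- cells (2.72% of those tested) and 283 lower (2.52%), 5.24% in all, and in 584 of these 589 the libraries of the groups did not overlap. By comparison, libraries did not overlap in 10.9% of all tested genes in the higher direction and in 12.8% in the lower. At an unadjusted p under 0.05, 8.54% of all tested genes were higher and 10.9% lower, the background for the unadjusted counts of the lists below. Of the calls, 181 were at least 2-fold higher and 146 at least 2-fold lower. Lower calls gathered in cell division and MHC class II genes, with 87 of the 283 in the lists for mitosis, S phase and MHC class II. These lists held 60, 57 and 11 of the 11246 tested genes and were chosen with earlier results of these data known. Higher calls included 5 genes of the plasma cell list and 6 of amino acid supply, but 93 of the 306 (30.4%) were satellite-like gene models or odorant and pheromone receptor genes, which are described separately below. Without B220+2NBDG- replicate 3 there were 282 higher calls (2.51%) and 400 lower calls (3.56%), of which 215 and 218 were also called with it. Leaving out B220-2NBDG- replicate 1 gave 140 and 89. Without replicate 2 or 3 of that group the higher calls were 193 and 194, and the lower calls 217 and 186. Without B220+2NBDG- replicate 1 or 2 the lower calls were 181 and 155. The split of calls depended on the scale: with immunoglobulin genes left in, as deposited, 243 genes were called higher and 6172 lower, as the median of all tested genes moved from -0.04 to -0.22. A limma fit with weighted libraries made 613 and 830 calls, and one of the 6 libraries alone 75 and 43.

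**Figure D1:**
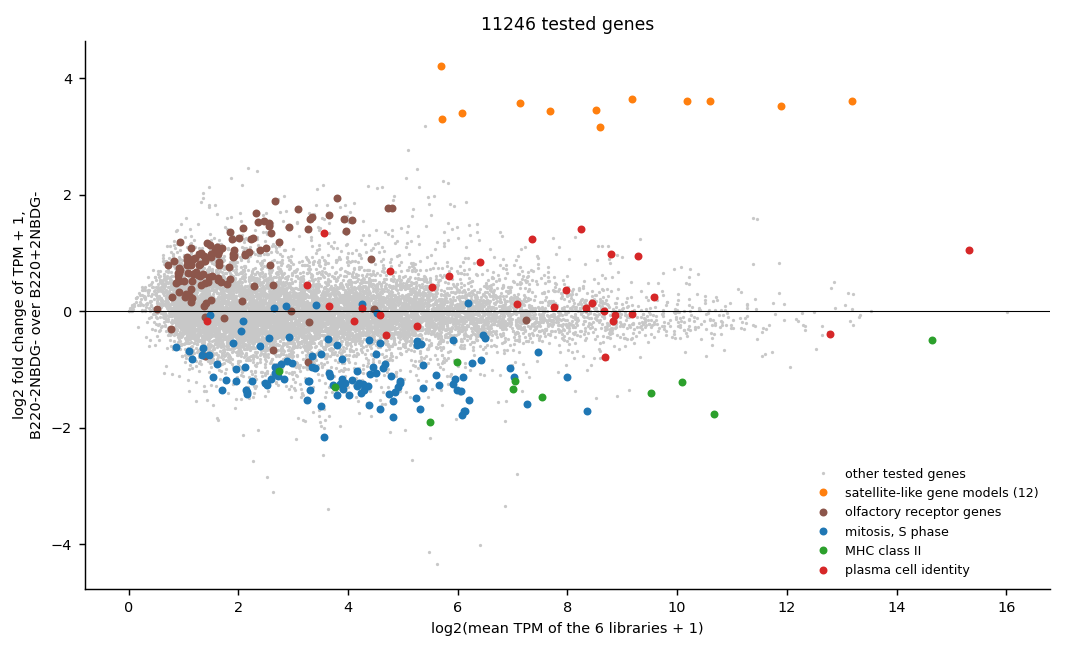
Log2 fold change (vertical axis, TPM + 1) against mean level of the 6 libraries (horizontal axis, log2 scale) for each of the 11246 tested genes, with 5 groups of genes coloured. Mitosis, S phase and MHC class II genes lie mostly below 0, 5 plasma cell genes were called higher, and the 12 satellite-like gene models lie highest, around a median of 3.55.

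Genes of mitosis were lower in B220-2NBDG- cells almost throughout the list. Of 60 tested genes for spindle, kinetochore, chromosome condensation and mitotic kinases, 48 were called lower and 0 higher (none was higher at an unadjusted p under 0.05 either), with a median log2 fold change of -1.25 beside -0.04 for all tested genes. Libraries did not overlap in 53 of the 60. Summed over the list, TPM was 2479, 2719 and 2527 in B220+2NBDG- replicates 1 to 3 and 880.3, 1186 and 1330.2 in those of B220-2NBDG-. Every B220+2NBDG- library, replicate 3 included, was above every B220-2NBDG- library, and the lowest of all was B220-2NBDG- replicate 1. Without B220+2NBDG- replicate 3 the list held 44 lower calls, and without B220-2NBDG- replicate 1 it held 23.

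Cdk1, the kinase that drives entry into mitosis (chr10:69335146-69352938, GRCm38), was found at 106, 114 and 94.6 TPM in the B220+2NBDG- libraries and at 20.3, 34.8 and 43.2 TPM in the B220-2NBDG- libraries. The groups were far apart, at a log2 fold change of -1.71 ± 0.30 (3.27-fold, adjusted p = 0.00526). Cenpf, a kinetochore protein (chr1:189640606-189688086), was found at 12.6, 17.4 and 25.1 against 2.52, 2.64 and 4.71 TPM, the most negative change of the list (-2.16 ± 0.36, adjusted p = 0.00438). In contrast to Cdk1, its highest level was in B220+2NBDG- replicate 3. Birc5, which encodes survivin of the chromosomal passenger complex, was at 91.6, 96.9 and 121 against 18.2, 38.2 and 41.1 TPM (-1.71 ± 0.36, adjusted p = 0.0139). Top2a, the topoisomerase that untangles chromosomes, was at 57.3, 78.3 and 42.4 against 11.3, 18 and 24.9 TPM (-1.68 ± 0.29, adjusted p = 0.005). Calls for Cdk1, Cenpf and Top2a were kept in each of the 6 fits without 1 library, and that for Birc5 ended when B220-2NBDG- replicate 1 was left out (adjusted p = 0.0708). Mki67, the usual marker of dividing cells, missed the threshold at 17.4, 17.8 and 35.2 against 10.3, 9.12 and 12 TPM (adjusted p = 0.0696), and passed it with the replicate number as a block (adjusted p = 0.046).

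Promoters of mitotic genes are known for a cell cycle homology region (CHR) next to CCAAT boxes. Since the members moved together, the promoters of Cdk1 and Cenpf are shown from 250 bases before to 50 after the RefSeq start (GRCm38.p6, on the minus strand at chr10:69352863-69353162 and chr1:189688037-189688336), 5′ to 3′. Capitals mark TTTGAA (CHR), CCAAT and the E2F sites TTGGCGC and TTCCCGC on either strand (the reversed CCAAT box and the first E2F site share the letters TTGG).
Cdk1: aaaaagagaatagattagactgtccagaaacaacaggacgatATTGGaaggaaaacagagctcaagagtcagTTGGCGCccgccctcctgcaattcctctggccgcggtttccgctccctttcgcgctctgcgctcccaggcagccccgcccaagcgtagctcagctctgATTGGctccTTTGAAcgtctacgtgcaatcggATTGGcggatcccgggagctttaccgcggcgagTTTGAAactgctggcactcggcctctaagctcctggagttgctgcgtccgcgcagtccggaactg
Cenpf: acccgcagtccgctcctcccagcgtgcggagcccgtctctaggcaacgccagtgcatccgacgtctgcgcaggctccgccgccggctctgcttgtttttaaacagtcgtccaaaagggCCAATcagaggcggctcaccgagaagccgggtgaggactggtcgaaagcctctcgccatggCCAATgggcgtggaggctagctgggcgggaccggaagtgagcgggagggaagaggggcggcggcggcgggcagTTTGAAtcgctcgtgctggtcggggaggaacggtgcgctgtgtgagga
The Cdk1 window held 2 CHR matches, 3 CCAAT boxes and 1 match of the first E2F site, and that of Cenpf 1 CHR match and 2 CCAAT boxes. Of the 49 genes of the mitosis list with a RefSeq promoter, 69.4% held a CHR match and 61.2% held both a CHR match and a CCAAT box, compared with 20.2% and 7.97% of 27025 promoters of the same length. These are matches of letters, not measured sites.

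DNA replication genes were lower as well, in a smaller part of the list. Of 57 tested genes of DNA replication and S phase, 31 were called lower and 0 higher (0 at an unadjusted p under 0.05), with a median log2 fold change of -0.93. List sums were 2384, 2654 and 2081 TPM in B220+2NBDG- and 901, 1209.8 and 1298 TPM in B220-2NBDG-, again with no overlap. There were 32 lower calls without B220+2NBDG- replicate 3, 18 and 15 without replicates 1 and 2 of that group and 11 without B220-2NBDG- replicate 1. Rrm2, the subunit of ribonucleotide reductase made in S phase, was found at 490.2, 622 and 385 TPM in B220+2NBDG- and 93.9, 182 and 192 TPM in B220-2NBDG- (-1.71 ± 0.29, adjusted p = 0.00486). It was the most abundant of the members named here, and its call was kept in all 6 fits without 1 library. Pclaf, a clamp-binding protein of the replication fork, was at 91.9, 115 and 104 against 19.9, 35.1 and 34.9 TPM (-1.79 ± 0.37, adjusted p = 0.0135). It was not called when B220+2NBDG- replicate 2 or B220-2NBDG- replicate 1 was left out (adjusted p up to 0.0742). Esco2, which acetylates cohesin during replication, was at 42.6, 44 and 40.5 against 17.2, 6.17 and 13.3 TPM (-1.81 ± 0.44, adjusted p = 0.0303), a call kept only in the fit without B220-2NBDG- replicate 1 among the 6 without 1 library (adjusted p 0.045 to 0.109). The linker histone gene Hist1h1b was at 14.6, 9.27 and 26.4 against 2.68, 1.93 and 6.67 TPM (-1.91 ± 0.40, adjusted p = 0.0144, and up to 0.0716 with no call when replicate 1 or 2 of B220-2NBDG- was left out). Ube2t, a ubiquitin-conjugating enzyme gene of DNA repair, was at 15.8, 12.6 and 20.3 against 3.79, 4.39 and 3.49 TPM (-1.80 ± 0.23, adjusted p = 0.00113).

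Mcm5, a subunit of the replicative helicase, was found at 57.6, 71.6 and 35.2 TPM in B220+2NBDG- and at 11.3, 21.6 and 23.9 TPM in B220-2NBDG- (-1.49 ± 0.32, adjusted p = 0.0149). Its lowest B220+ value, in replicate 3, was still above the highest B220- value. The call was kept in 3 of 6 fits and ended without replicate 1 or 2 of B220+2NBDG- and without B220-2NBDG- replicate 1 (adjusted p 0.00908 to 0.0758). E2F sites are the known promoter element of S phase genes, and the Mcm5 window (RefSeq, GRCm38.p6, plus strand, chr8:75109259-75109558) is shown with the same capitals.
Mcm5: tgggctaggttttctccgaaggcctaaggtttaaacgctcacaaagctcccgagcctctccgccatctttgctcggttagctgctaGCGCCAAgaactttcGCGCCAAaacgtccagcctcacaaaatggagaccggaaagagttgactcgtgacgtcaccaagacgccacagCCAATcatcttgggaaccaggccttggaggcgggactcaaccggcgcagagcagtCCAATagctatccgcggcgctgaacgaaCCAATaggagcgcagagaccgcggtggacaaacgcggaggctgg
It held 2 matches of the first E2F site and 3 CCAAT boxes and no CHR match. Of 44 S phase genes with a RefSeq promoter, 59.1% held either E2F site, compared with 7.79% of all promoters, and 15.9% held a CHR match.

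Genes of cell cycle arrest were not called. Among 17 tested inhibitors of the cell cycle and genes of quiescence 0 were called (limma), with 1 higher and 6 lower at an unadjusted p under 0.05, and 3 were called lower with the replicate number as a block and 2 without B220+2NBDG- replicate 3. Cdkn2d, an inhibitor of the G1 kinases and among the most abundant of the list, was at 68, 85.5 and 43.7 against 36.7, 37.5 and 36.8 TPM (adjusted p = 0.123), and was called lower with the block (adjusted p = 0.0274) and without that replicate (adjusted p = 0.0353). Of 30 MYC and ribosome biogenesis genes only Npm1, the nucleolar chaperone nucleophosmin, was called, at 541, 545 and 556 against 400.5, 393 and 437 TPM (-0.42 ± 0.09, adjusted p = 0.0145). The list held 2 lower calls when B220+2NBDG- replicate 3 was left out. Myc itself was at 20.3, 27.4 and 22.5 against 14.7, 20.9 and 24 TPM (adjusted p = 0.619). Among 44 cytosolic ribosomal protein genes Rpl4 alone was called, at 1563, 1714 and 1559 against 1071, 1180.5 and 1230.5 TPM (-0.47 ± 0.10, adjusted p = 0.0111), and 20 were lower at an unadjusted p under 0.05. Ribosomal protein genes have many near-identical pseudogenes, among which reads may be split. Calls for Npm1 and Rpl4 were lost without B220-2NBDG- replicate 1, and for Npm1 also without replicate 2 of that group (adjusted p up to 0.073 and 0.0686).

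**Figure D2:**
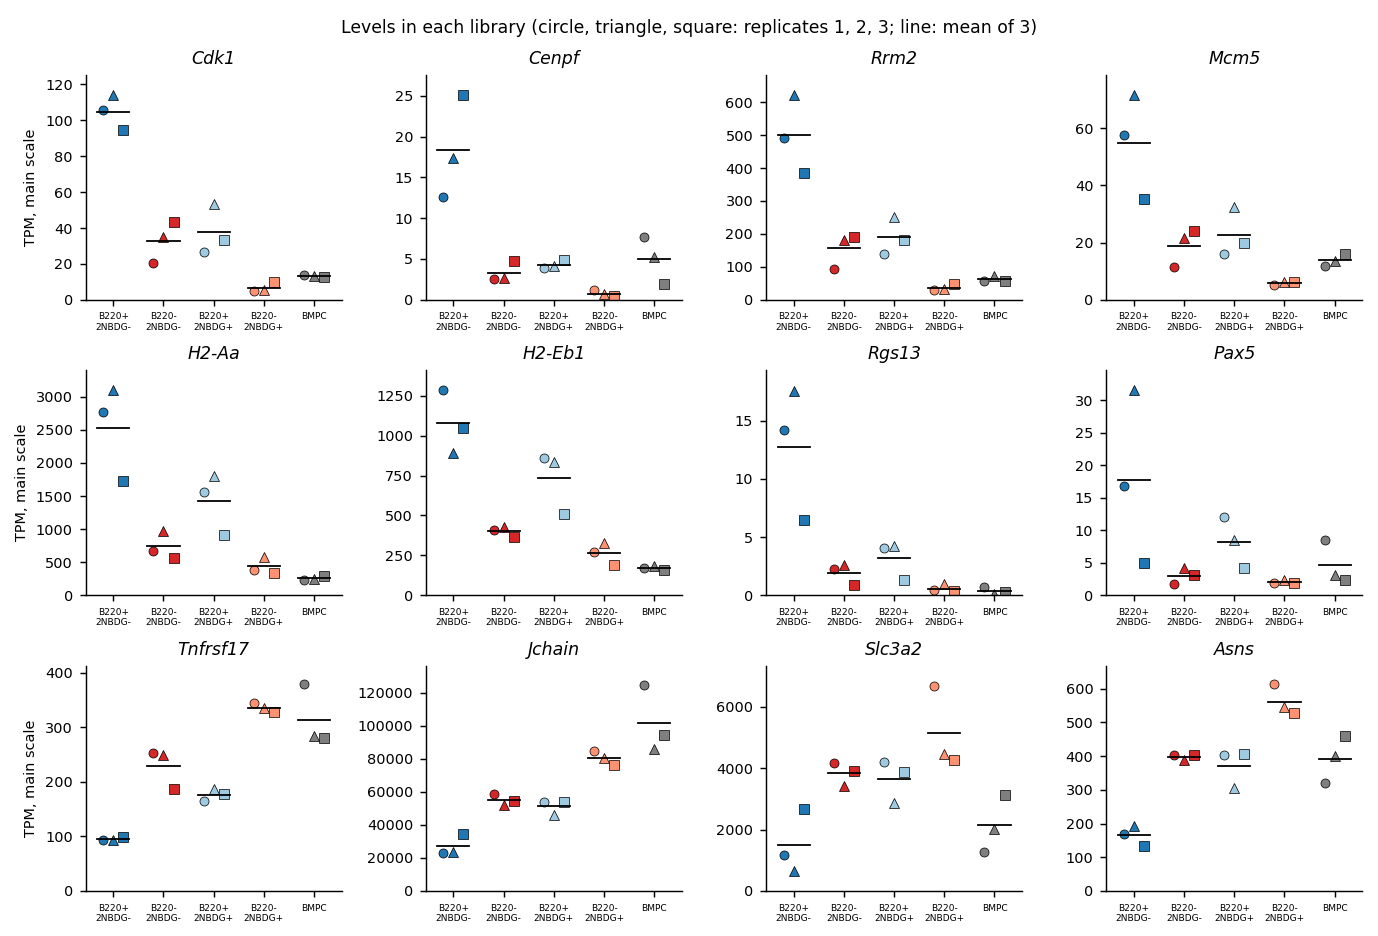
TPM (vertical axis, from 0) of 12 genes in the 15 libraries, by sorted group on the horizontal axis, with 1 point per library and a line at the mean of 3. Cdk1, Cenpf, Rrm2, Mcm5, H2-Aa, H2-Eb1, Rgs13 and Pax5 are higher in all 3 B220+2NBDG- libraries than in any B220-2NBDG- library, and Tnfrsf17, Jchain, Slc3a2 and Asns are lower in all 3.

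MHC class II genes formed the other large group of lower transcripts. Of 11 tested genes for the peptide-binding chains and their loading, 8 were called lower and 0 higher (0 at an unadjusted p under 0.05), with a median log2 fold change of -1.30. H2-Aa, the alpha chain of I-A (chr17:34282744-34287823, GRCm38), was found at 2774, 3099 and 1723 TPM in B220+2NBDG- and at 676, 976 and 571 TPM in B220-2NBDG- (-1.76 ± 0.30, adjusted p = 0.00448). B220+2NBDG- replicate 3 was the lowest of its group and was still above all 3 B220- libraries. Its partner H2-Ab1 was at 1714, 1124 and 1759 against 650.0, 693 and 607 TPM (-1.21 ± 0.20, adjusted p = 0.0046). H2-Eb1, the beta chain of I-E, was at 1287, 892 and 1050.3 against 408, 428 and 365 TPM (-1.41 ± 0.22, adjusted p = 0.00322). Calls for these 3 were kept in all 6 fits without 1 library. H2-Oa, a chain of the B cell chaperone that restrains peptide loading, was at 78.6, 96.1 and 36.1 against 16, 26.8 and 10.7 TPM (-1.90 ± 0.48, adjusted p = 0.0351), a call kept in 2 of the 6 fits, those without B220+2NBDG- replicate 3 and without B220-2NBDG- replicate 2 (adjusted p 0.0171 to 0.127). Ciita, the coactivator of the whole locus, was at 21.8, 27.2 and 6.45 against 4.72, 12.3 and 3.24 TPM and Cd74, the invariant chain, at 35815, 33600.4 and 21135 against 22461, 22666 and 18041 TPM. Neither was called (adjusted p = 0.27 and 0.148), but Cd74 passed without B220+2NBDG- replicate 3 (adjusted p = 0.0142) and Ciita with the replicate block (adjusted p = 0.023). The list held 10 lower calls without B220+2NBDG- replicate 3, and 10 with the block. It held 4 without each of B220+2NBDG- replicate 1, B220+2NBDG- replicate 2, B220-2NBDG- replicate 1 and B220-2NBDG- replicate 3.

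MHC class II promoters are known for a Y box, an inverted CCAAT box. The H2-Aa window (RefSeq, GRCm38.p6, minus strand, chr17:34287774-34288073) is shown with the same capitals.
H2-Aa: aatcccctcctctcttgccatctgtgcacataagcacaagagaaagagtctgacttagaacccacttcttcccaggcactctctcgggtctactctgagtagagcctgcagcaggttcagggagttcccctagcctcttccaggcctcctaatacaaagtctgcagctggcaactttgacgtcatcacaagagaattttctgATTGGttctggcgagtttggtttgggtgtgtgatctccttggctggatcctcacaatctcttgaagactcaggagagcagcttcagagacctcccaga
It held 1 CCAAT box, on the reverse strand. All 8 class II genes with a RefSeq promoter held a CCAAT box on either strand, compared with 41.1% of all promoters, and none held a CHR match or an E2F site. A CCAAT box was also held by 77.6% of mitosis and 61.4% of S phase genes with a promoter. In the lists with higher calls it was held by 60.9% of amino acid supply and 45.5% of plasma cell genes.

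Other B cell genes lay mostly below 0, while the number called depended on B220+2NBDG- replicate 3 and on the replicate block. Among 40 tested genes of B cell identity and receptor signalling 1 was called, Cd52, which encodes a small surface glycoprotein of lymphocytes, at 5076, 4692 and 7162 against 2710.4, 2628 and 3295 TPM (-0.95 ± 0.16, adjusted p = 0.00509). The list's median log2 fold change was -0.52, with 15 lower and 1 higher at an unadjusted p under 0.05. Of the 40 members 36 lay below 0 and 4 above, and libraries did not overlap in 11 in the lower direction. List sums, Cd52 included, were 11945.5, 12498 and 12380.7 TPM in B220+2NBDG- and 9245.4, 8103.8 and 8420.4 TPM in B220-2NBDG-, without overlap. Cd52 was a large part of these sums, with 7162 of the 12380.7 TPM in B220+2NBDG- replicate 3. The lack of overlap does not hold for the other members summed without it. Lower calls numbered 10 without B220+2NBDG- replicate 3 and 11 with the replicate number as a block. Pax5, the transcription factor that holds B cell identity, was at 16.7, 31.5 and 4.89 against 1.68, 4.22 and 3.06 TPM (-1.97 ± 0.55, adjusted p = 0.0571), and at adjusted p = 0.00924 without that library and 0.0321 with the block. Cd22, an inhibitory receptor of B cells, was at 185, 267 and 44.7 against 41.6, 63.7 and 31.1 TPM (adjusted p = 0.226, and 0.0481 without it and 0.025 with the block). In both genes, B220+2NBDG- replicate 3 was nearer to the B220- libraries than to its own group, though for Pax5 it was still above each of them. Ms4a1, which encodes CD20, was at 123, 177 and 108 against 114, 96.7 and 72.5 TPM and Bach2 at 3.39, 4.42 and 1.5 against 1.24, 2.29 and 1.12 TPM, with neither called (adjusted p = 0.279 and 0.372).

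Of 19 tested germinal centre and B cell activation genes, 4 were called lower and 0 higher (1 higher at an unadjusted p under 0.05). Rgs13, a regulator of chemokine signalling typical of germinal centre B cells, was at 14.2, 17.6 and 6.46 against 2.28, 2.57 and 0.898 TPM (-2.19 ± 0.39, adjusted p = 0.00577), with the lowest value of each group in replicate 3. Ezh2, the histone methyltransferase of dividing B cells, was at 25.3, 33.7 and 30.0 against 12, 12.2 and 18.2 TPM (-1.04 ± 0.21, adjusted p = 0.0112). Cd80, a costimulatory ligand, was at 4.58, 3.48 and 3.67 against 1.33, 1.88 and 1.35 TPM (-0.96 ± 0.20, adjusted p = 0.0149). The death receptor Fas was at 70.8, 71.1 and 58.9 against 35.4, 51 and 29.8 TPM (-0.80 ± 0.18, adjusted p = 0.0173). The call for Rgs13 was kept in all 6 fits without 1 library, and without B220+2NBDG- replicate 3 the list held 1 higher call beside 4 lower. Ezh2, Cd80 and Fas were not called when B220-2NBDG- replicate 1 was left out, nor Cd80 and Fas without replicate 3 of that group or replicate 1 of B220+2NBDG-, nor Fas without replicate 2 of B220+2NBDG- (adjusted p up to 0.0649, 0.073 and 0.0815).

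**Figure D3:**
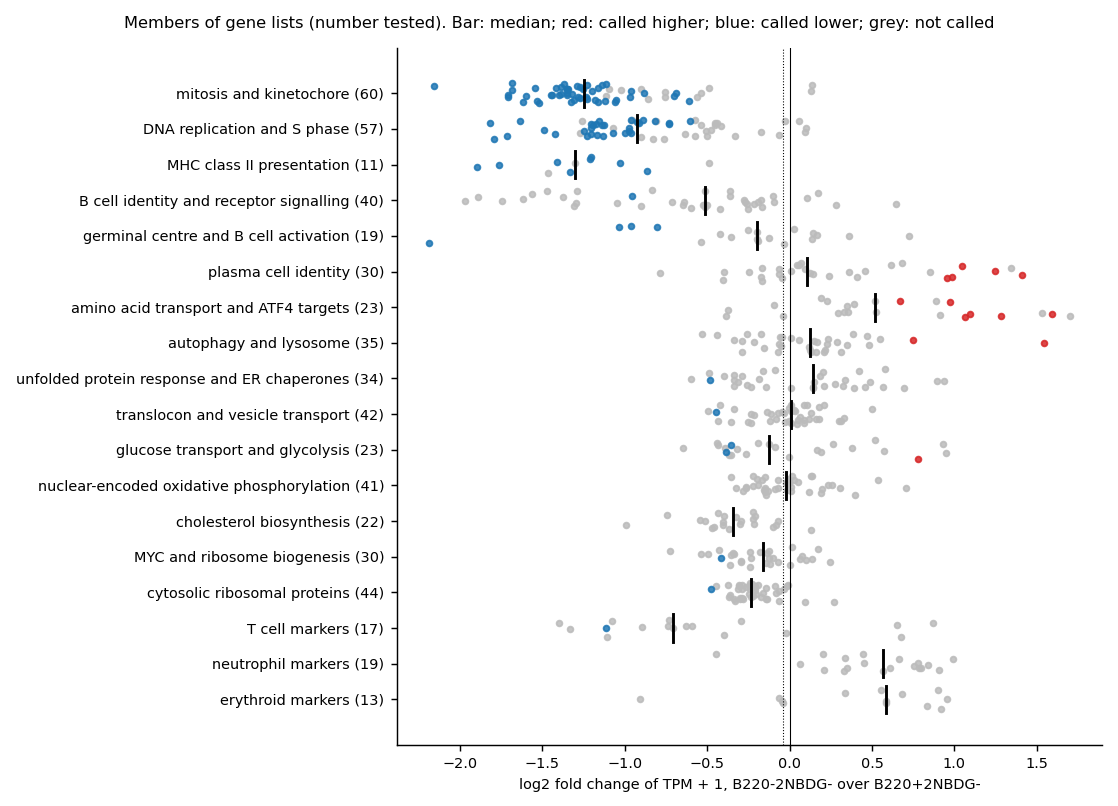
Log2 fold change (horizontal axis, TPM + 1) of each tested member of 18 gene lists (rows, with the number tested), with the list's median as a bar and a dotted line at -0.04, the median of all tested genes. Of 60 mitosis genes 48 were called lower and 0 higher, and the only lists shown with more than 2 higher calls are plasma cell identity (5) and amino acid transport and ATF4 targets (6).

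A few plasma cell genes, for receptors and for secreted or surface products, were called higher in B220-2NBDG- cells. Most of the plasma cell list was not called, nor were Prdm1, Irf4 and Xbp1. Of 30 tested plasma cell identity genes, 5 were called higher and 0 lower (2 lower at an unadjusted p under 0.05), with a median log2 fold change of 0.11 that was -0.36 on the deposited scale. Tnfrsf17, which encodes the survival receptor BCMA (chr16:11313812-11320074, GRCm38), was found at 92.4, 93.6 and 99.6 TPM in B220+2NBDG- and at 253, 249.4 and 187 TPM in B220-2NBDG- (1.25 ± 0.14, adjusted p = 0.00113). The B220+ libraries, replicate 3 included, lay close together and below every B220- library. Tnfrsf13b, which encodes TACI, the other receptor for BAFF and APRIL, was at 343, 278 and 274 against 559, 642 and 566 TPM (0.98 ± 0.18, adjusted p = 0.00744). Jchain, the chain that joins IgM and IgA into polymers, was at 23142, 23756 and 34440.4 against 58574, 51852 and 54609.8 TPM (1.04 ± 0.15, adjusted p = 0.0023). Here B220+2NBDG- replicate 3 was the highest of its group. Prg2, known as the major basic protein of eosinophil granules, was at 399.7, 450.0 and 427 against 879, 821 and 777 TPM (0.95 ± 0.12, adjusted p = 0.00113). Ly6k, a surface protein of the Ly6 family, was at 161, 177 and 140.1 against 565, 502 and 268 TPM (1.41 ± 0.36, adjusted p = 0.0382). Calls for the first 4 were kept in all 6 fits without 1 library, and that for Ly6k in 1, without B220-2NBDG- replicate 3 (adjusted p 0.0214 to 0.17). On the deposited scale the list held 18 lower calls and 1 higher call, Tnfrsf17 (log2 fold change 0.55, adjusted p = 0.0183). Jchain and Tnfrsf13b stayed above 0 there and were not called (adjusted p = 0.0772 and 0.24), and the fit with weighted libraries called 8 members higher. Xbp1, the factor of secretory expansion, was at 319, 299 and 639 TPM in B220+2NBDG- and 394, 398 and 395 TPM in B220-2NBDG- (adjusted p = 0.99), with the one high value in B220+2NBDG- replicate 3.

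The share of immunoglobulin genes in deposited TPM, given above for each library, was 91.6% ± 0.527 (SD, n = 3) in B220+2NBDG- and 94.7% ± 0.148 in B220-2NBDG-, a difference of 3.03 percentage points without overlap (two-sided exact permutation test, p = 0.1, the smallest possible with 3 against 3). Constant region genes alone took 12.2%, 11.4% and 12.2% against 12.2%, 11.7% and 11.8%, and did not differ beyond the spread (exact p = 0.8). Among 8 heavy chain isotypes none could pass, and the exact p-values adjusted over the 8 were 0.267 to 0.5. Paired by replicate number, each of the 8 differed in the same direction in all 3 pairs (exact permutation test in pairs, p = 0.25, the smallest possible). Of the TPM of heavy chain constant genes, Ighm took 68.7%, 69.3% and 79.6% in B220+2NBDG- and 81.7%, 74.3% and 82.6% in B220-2NBDG- (exact p = 0.2). B220+2NBDG- replicate 3 lay among the B220- libraries in this share. Ighg2b took 14.01%, 10.1% and 8.32% against 6.001%, 6.96% and 5.31%, and Ighg2c 9.38%, 8.82% and 3.77% against 2.87%, 3.72% and 2.31%, both without overlap (exact p = 0.1). Igha took 5.66%, 7.42% and 2.73% against 8.64%, 12.8% and 6.01% (exact p = 0.2). Ighd was at 0.101% ± 0.0778 against 0.0267% ± 0.00567 (means ± SD, n = 3, exact p = 0.1), and Ighg1, Ighg3 and Ighe were at means of 1.31%, 2.55% and 0.0710% against 0.654%, 1.53% and 0.0370% (exact p = 0.2, 0.3 and 0.5). The membrane form of Ighm, which serves as the B cell receptor, made up 1.58%, 1.62% and 1.19% of Ighm TPM in B220+2NBDG- and 1.02%, 1.04% and 0.842% in B220-2NBDG- (exact p = 0.1).

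**Figure D4:**
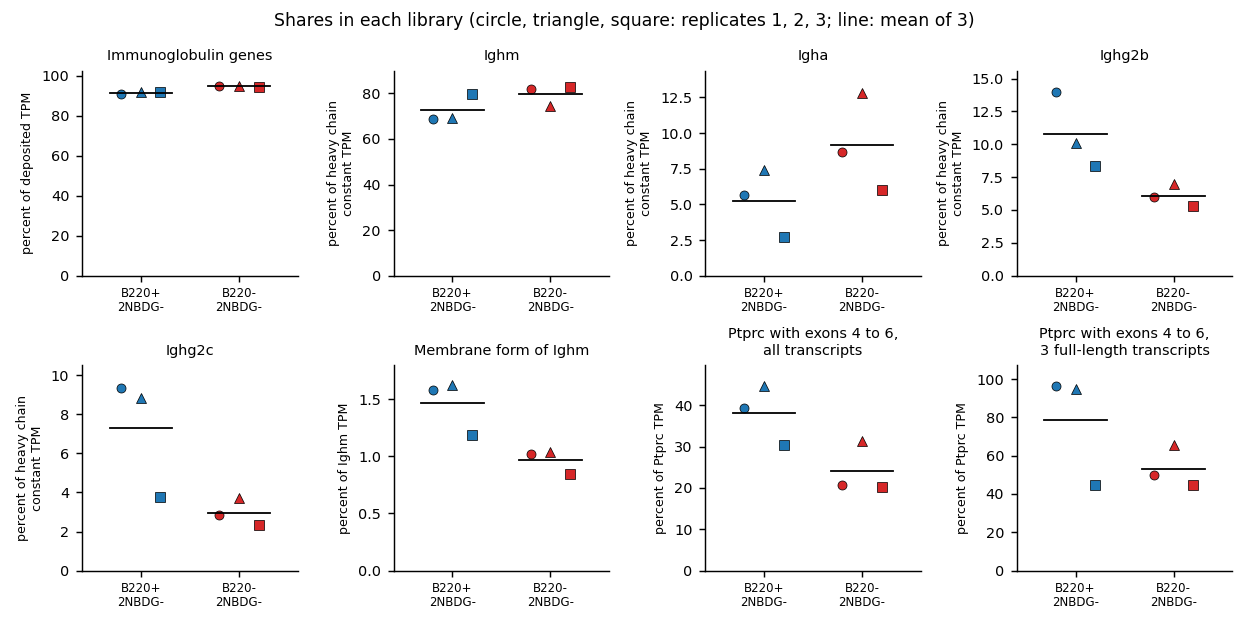
Shares in percent (vertical axes, from 0) for the 6 libraries by group, with 1 point per library and a line at the mean of 3. Immunoglobulin genes, Ighg2b, Ighg2c and the membrane form of Ighm separate the groups, while in Ighm and in the full-length Ptprc form with exons 4 to 6 B220+2NBDG- replicate 3 lies level with the B220-2NBDG- libraries.

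Genes of amino acid supply were the second group with higher calls. Of 23 tested genes of amino acid transport and of targets of ATF4, the transcription factor of the amino acid response, 6 were called higher and 0 lower (1 lower at an unadjusted p under 0.05), and libraries did not overlap in 11 in the higher direction. The median log2 fold change was 0.52, and -0.04 on the deposited scale, where 3 higher and 4 lower calls were made. Asns, asparagine synthetase (chr6:7675169-7693254, GRCm38), was found at 168, 192 and 134 TPM in B220+2NBDG- and at 402, 387 and 403 TPM in B220-2NBDG- (1.28 ± 0.16, adjusted p = 0.00113), and its call was kept in all 6 fits without 1 library. Slc3a2, the heavy chain CD98 shared by several amino acid transporters, was at 1155, 658 and 2666 against 4165, 3432 and 3895 TPM (1.59 ± 0.41, adjusted p = 0.0417). The B220+ libraries were spread widely, with replicate 3 nearest to the B220- libraries, and the call was kept in 1 of the 6 fits, without that replicate (adjusted p 0.00576 to 0.149). Slc7a3, a carrier of cationic amino acids, was at 4.2, 4.98 and 3.35 against 12.2, 8.49 and 8.84 TPM (1.06 ± 0.21, adjusted p = 0.0102). Phgdh, the first enzyme of serine synthesis, was at 415, 335 and 374 against 627, 557 and 603 TPM (0.67 ± 0.16, adjusted p = 0.0261). Pycr1, the last enzyme of proline synthesis, was at 172, 122 and 155 against 291, 269 and 319 TPM (0.98 ± 0.14, adjusted p = 0.00221). Atf5, a transcription factor of the same response, was at 2, 1.54 and 4.94 against 8.44, 7.36 and 4.62 TPM (1.10 ± 0.29, adjusted p = 0.0431), with overlap, and lost its call with the replicate block (adjusted p = 0.0566). Slc7a3, Phgdh and Atf5 were not called without B220-2NBDG- replicate 1. Phgdh and Atf5 also needed B220+2NBDG- replicate 2, Phgdh B220-2NBDG- replicate 3, and Atf5 B220+2NBDG- replicate 1 and B220-2NBDG- replicate 2 (adjusted p up to 0.0596, 0.11 and 0.188). The list held 7 higher calls without B220+2NBDG- replicate 3, 4 and 3 without replicates 1 and 2 of that group, 2 without B220-2NBDG- replicate 1 and 4 without each of the other B220-2NBDG- replicates.

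Secretory and metabolic lists showed few calls. Of 34 genes of the unfolded protein response and ER chaperones Hsp90b1 alone was called, at 3129, 3279 and 3434 against 2194, 2327 and 2514 TPM (-0.49 ± 0.12, adjusted p = 0.0331). Of 42 translocon and vesicle transport genes Ssr2 alone was called, at 1031, 1068 and 1205 against 688, 881 and 869.7 TPM (-0.44 ± 0.11, adjusted p = 0.0318). Hsp90b1 lost its call in each of the 6 fits without 1 library (adjusted p 0.0525 to 0.148) and Ssr2 in 4, all but those without B220-2NBDG- replicate 2 or 3 (adjusted p 0.0374 to 0.154). Both lists held higher calls in place of lower ones when B220+2NBDG- replicate 3 was left out, 2 in the first (Dnajb9, a cochaperone, and Edem2, of ER-associated degradation) and 1 in the second (Spcs1, a subunit of the signal peptidase), so these lists had no direction that held across libraries. No gene was called among 31 of N-glycosylation, 28 of pyruvate import and the TCA cycle, 41 of nuclear-encoded oxidative phosphorylation, 13 encoded in mitochondria, 20 of fatty acid oxidation and 22 of cholesterol synthesis (limma). At an unadjusted p under 0.05 these lists held 2, 1, 1, 0, 1 and 0 higher and 1, 1, 0, 0, 0 and 5 lower genes, and the weighted fit called 1, 0, 1, 0, 1 and 0 higher and 0, 3, 0, 0, 0 and 1 lower. Without B220+2NBDG- replicate 3, 1 oxidative phosphorylation and 1 fatty acid oxidation gene were called higher and 2 TCA cycle genes lower, and on the deposited scale 10 to 34 genes of each of the 6 lists were called lower. Cox4i1, a subunit of cytochrome c oxidase, was at 1298, 1124 and 1195 against 1253, 1171 and 1183 TPM and mt-Atp6, a mitochondrially encoded subunit of ATP synthase, at 10257, 10045 and 11499 against 9762, 9604 and 10270.0 TPM. Wipi1, a protein of early autophagosomes, was at 9.59, 6.6 and 10.8 against 29.5, 29.2 and 24.6 TPM (1.55 ± 0.25, adjusted p = 0.00403). The lysosomal protease gene Ctsl was at 34.3, 31.6 and 42.5 against 72.4, 56 and 55.8 TPM (0.75 ± 0.20, adjusted p = 0.0458). They were the 2 calls among 35 autophagy and lysosome genes (4 higher without B220+2NBDG- replicate 3), of which Wipi1 was kept in all 6 fits without 1 library and Ctsl in 1, without B220+2NBDG- replicate 3 (adjusted p 0.0334 to 0.197).

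Glucose handling was of interest because both subsets were sorted for lack of 2NBDG uptake. Slc2a1, which encodes the glucose transporter GLUT1, was found at 12.6, 11.3 and 12.2 TPM in B220+2NBDG- and at 16.1, 14.4 and 23.4 TPM in B220-2NBDG- (0.52 ± 0.23, adjusted p = 0.243), without overlap and not called. Slc2a3, which encodes GLUT3, was at 7.4, 16.4 and 4.55 against 4.92, 4.21 and 11.6 TPM (adjusted p = 0.753). Of 23 tested genes of glucose transport and glycolysis Pfkl, the liver type of phosphofructokinase, was called higher at 25.8, 15.2 and 17.3 against 30.0, 41.1 and 29.8 TPM (0.78 ± 0.20, adjusted p = 0.0377). Gpi1 and Pgk1, enzymes before and after that step, were called lower at 262, 256 and 255 against 205, 215 and 185 TPM (-0.36 ± 0.09, adjusted p = 0.0419) and at 142, 151 and 149.5 against 106, 112 and 121 TPM (-0.38 ± 0.10, adjusted p = 0.0473). Pfkl and Gpi1 kept their calls in 1 of the 6 fits without 1 library, those without replicate 1 and replicate 3 of B220+2NBDG- respectively, and Pgk1 in none (adjusted p up to 0.131, 0.157 and 0.198), and with the replicate block Gpi1 was not called (adjusted p = 0.0516). The list held 0 higher and 4 lower calls when B220+2NBDG- replicate 3 was left out (Gpi1, Eno1, Pkm and Ldha, all enzymes of glycolysis or lactate formation), and with median-of-ratios scaling 1 higher and 0 lower. At an unadjusted p under 0.05 it held 4 higher and 7 lower genes, and 9 members lay above 0 and 14 below. List sums were 4995, 4896 and 4260 TPM in B220+2NBDG- and 3664, 3994 and 4159 TPM in B220-2NBDG-, without overlap.

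Lists of receptors and signalling genes held single lower calls, a share near the 2.52% of all tested genes called lower. Cxcr3, a receptor for interferon-induced chemokines, was at 96.4, 97.9 and 86.1 against 27.4, 39.6 and 38.5 TPM (-1.40 ± 0.17, adjusted p = 0.00113) and was the 1 call among 29 homing and adhesion genes. All 6 fits without 1 library kept it, and the replicate block raised the list's lower calls to 4 and added 1 higher. Nfkbid, an atypical inhibitor of NF-kappaB, was at 3.18, 3.57 and 3.88 against 1.44, 1.96 and 1.49 TPM (-0.79 ± 0.16, adjusted p = 0.0111). The phosphatase gene Dusp2, induced early after activation, was at 5.45, 7.21 and 8.68 against 1.12, 3.48 and 1.65 TPM (-1.45 ± 0.32, adjusted p = 0.0172). These 3 lists held 2 lower calls each, and the NF-kappaB list 1 higher, when B220+2NBDG- replicate 3 was left out. With it, each of Nfkbid and Dusp2 was the 1 call of its list, of 25 NF-kappaB genes and 24 immediate early and heat shock genes. Without B220-2NBDG- replicate 1 neither was called (adjusted p up to 0.0637 and 0.0949), and Dusp2 was not called either when B220+2NBDG- replicate 2 was left out, nor without replicate 3 of B220-2NBDG-. In the BCL2 family and survival list the 2 calls of 27 were Tnfrsf17 and Tnfrsf13b (with 1 lower call added without B220+2NBDG- replicate 3), and none of 28 interferon response genes was called (3 higher and 0 lower at an unadjusted p under 0.05, and 2 higher in the weighted fit).

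Apart from unnamed gene models such as the satellite-like ones described below, pseudogenes and antigen receptor genes, the called genes with the largest changes and at least 10 TPM in either group were a mixed set. Reg2, a secreted lectin-like protein of the regenerating family, led the higher ones at 7.9, 9.03 and 5.42 TPM in B220+2NBDG- and 61.9, 35.7 and 78.7 TPM in B220-2NBDG- (2.78 ± 0.34, 6.85-fold, adjusted p = 0.00113). Cox6a2, the muscle form of a cytochrome c oxidase subunit, followed at 14.1, 19.2 and 17.6 against 98.6, 111 and 52 TPM (2.23 ± 0.29, adjusted p = 0.00116), then the zinc finger gene Zfp488 at 4.36, 3.25 and 2.06 against 13.8, 15.8 and 24.7 TPM (2.17 ± 0.32, adjusted p = 0.00236). Fut1, a fucosyltransferase of cell surface glycans, was at 21, 17.6 and 16.5 against 84, 60.7 and 62.7 TPM (1.85 ± 0.24, adjusted p = 0.00119). The metal-binding metallothionein Mt2 was at 24.6, 12.5 and 41 against 100.1, 80.7 and 81.2 TPM (1.85 ± 0.37, adjusted p = 0.011). The tight junction gene Cldn7, the peptidase gene Cpq, the transporter gene Spns3, the steroid enzyme gene Hsd3b2 and C1qtnf1 had log2 fold changes of 2.10, 1.97, 1.87, 1.83 and 1.82 (adjusted p = 0.0104, 0.0055, 0.00113, 0.00844 and 0.0394). Of these 10 genes, 8 were called in all 6 fits without 1 library. C1qtnf1 was called in 1 of them, without B220+2NBDG- replicate 2 (adjusted p 0.0176 to 0.128), and Mt2 in 5, not when B220-2NBDG- replicate 1 was left out (adjusted p = 0.0572). The remaining 2 of the 12 highest, Olfr46 and Olfr1385, are odorant receptor genes.

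On the lower side, within the same limits, Speer1 had the most negative change at 16.3, 14.2 and 26.1 against 1.47, 3.07 and 3.11 TPM (-2.48 ± 0.60, adjusted p = 0.0302). It belongs to a family of near-identical copies, among which reads may be split, and lost its call in each of the 6 fits without 1 library (adjusted p 0.0574 to 0.133). Il2rb, the beta chain of the interleukin 2 and 15 receptors, was at 56.5, 43.7 and 29.5 against 8.4, 11.2 and 8.01 TPM (-2.08 ± 0.27, adjusted p = 0.00113), and the stress-responsive kinase gene Oxsr1 at 31.1, 15.3 and 10.5 against 5.13, 3.69 and 3.99 TPM (-1.80 ± 0.35, adjusted p = 0.0103), both kept in all 6 fits. Of the 12 lowest, 8 more were named above: Rgs13, Cenpf, Hist1h1b, H2-Oa, Esco2, Ube2t, Pclaf and H2-Aa.

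A large part of the higher calls came from gene models made of satellite-like repeats. There were 12 such models (Gm10715, Gm10717 to Gm10722, Gm10800, Gm10801, Gm11168, Gm17535 and Gm21738), all called higher, with a median log2 fold change of 3.55. Each holds the same stretch of 30 bases and shares at least 5% of its 25-base words with Gm10800, so reads cannot be assigned among them with certainty and they count as 1 signal. The first 250 bases of the annotated transcripts of Gm10800 (chr2:98666547-98667301, GRCm38) and Gm10718 (chr9:3023547-3025218) are shown, 5′ to 3′, since the 12 models are the called genes with the highest log2 fold changes of the comparison. Capitals mark the shared 30 bases.
Gm10800: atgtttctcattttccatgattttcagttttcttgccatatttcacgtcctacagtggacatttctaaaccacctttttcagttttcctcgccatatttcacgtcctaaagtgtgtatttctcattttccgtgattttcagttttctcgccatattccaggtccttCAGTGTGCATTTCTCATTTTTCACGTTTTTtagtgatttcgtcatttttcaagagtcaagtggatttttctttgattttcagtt
Gm10718: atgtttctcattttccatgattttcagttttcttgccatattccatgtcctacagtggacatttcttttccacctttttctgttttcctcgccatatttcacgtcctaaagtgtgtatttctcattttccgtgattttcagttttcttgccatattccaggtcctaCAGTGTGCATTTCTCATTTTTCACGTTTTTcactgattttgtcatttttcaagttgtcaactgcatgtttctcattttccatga
Together the 12 models took 4123, 4479 and 999 TPM in B220+2NBDG- replicates 1 to 3 and 41648, 25899 and 29223 TPM in B220-2NBDG-, that is 2.59% to 4.16% of all TPM outside immunoglobulin genes. The B220-2NBDG- libraries were above all 12 others of the series, of which the highest had 7779 TPM. Gm10800 alone was found at 2153, 2308 and 517 against 22124, 13676 and 15325 TPM (3.60 ± 0.45, adjusted p = 0.00113).

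Odorant receptor genes, known for their use by sensory neurons of the nose, were higher along with them. Of 120 tested Olfr genes 66 were called higher and 0 lower, with a median log2 fold change of 0.81, and of 24 Vmn genes for pheromone receptors 15 higher and 0 lower. They were the tested part of 1147 Olfr and 319 Vmn genes. Low genes could enter the test through the 3 B220-2NBDG- libraries alone, so these counts and the median were in part set by that filter. Summed TPM of all 1147 Olfr genes, which the filter does not touch, was 563, 540.0 and 418 in B220+2NBDG- and 940, 916 and 1051 in B220-2NBDG-. None of the 12 other libraries was above 563. Olfr46 was at 15.4, 12.9 and 7.44 against 41.2, 36.7 and 46.8 TPM (1.77 ± 0.28, adjusted p = 0.00338) and Olfr1385 at 13.7, 12.7 and 7.15 against 34.9, 34.3 and 49.95 TPM (1.77 ± 0.29, adjusted p = 0.00403). More widely, 160 of the 306 higher calls had means under 10 TPM in both groups, compared with 81 of the 283 lower calls, and 86 of the 306 had a mean under 1 TPM in B220+2NBDG-. The part of this low and repeat-derived signal in the other higher calls was not tested. With the satellite-like, Olfr and Vmn genes set aside as well, a choice made after their values were seen, 218 genes were called higher and 214 lower.

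Markers of other cells moved with the groups in part. Summed over 21 T cell markers (17 tested), TPM was 921, 459 and 142 in B220+2NBDG- and 266, 258 and 113 in B220-2NBDG-, so B220+2NBDG- replicates 1 and 2 were highest and replicate 3 was not. Trac, the constant region of the T cell receptor alpha chain, was at 158, 74.6 and 13.5 against 34.2, 34.1 and 13.2 TPM, and Lck, the kinase of that receptor, at 123, 122 and 15.2 against 37.7, 28 and 22.5 TPM, neither called (adjusted p = 0.457 and 0.455, and 0.0485 for Lck without B220+2NBDG- replicate 3). Lef1, a transcription factor of naive T cells, was called lower at 9.35, 7.55 and 2.86 against 2.86, 1.92 and 1.98 TPM (-1.12 ± 0.30, adjusted p = 0.0456), a call lost in 5 of 6 fits without 1 library and kept without B220+2NBDG- replicate 3 (adjusted p 0.003 to 0.148). The 16 NK cell markers (7 tested) summed to 196, 119.7 and 64.6 TPM against 45.8, 55.9 and 40.3 TPM, with Il2rb, given above, as the 1 call. T and NK cells also use Il2rb, Cxcr3, Lef1 and Cd52. The NK cell sums hold Il2rb itself, at 56.5, 43.7 and 29.5 against 8.4, 11.2 and 8.01 TPM, and the T cell sums hold Lef1. The sums are therefore not independent of the calls for Il2rb and Lef1. The part of T and NK cells in the calls for Il2rb, Cxcr3, Lef1 and Cd52 was not tested. In the fit with the replicate block 2 T cell and 2 NK cell markers were called lower, and without B220+2NBDG- replicate 3 there were 3 of each (Lck, Tcf7 and Lef1, and Nkg7, Eomes and Il2rb).

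Neutrophil and red cell transcripts were far higher in replicate 3 of both B220+2NBDG- and B220-2NBDG- than in replicates 1 and 2. S100a8, an abundant neutrophil protein, was at 13.9, 12 and 174 against 24.9, 15.6 and 158 TPM and the alpha globin gene Hba-a2 at 27.4, 28.2 and 921 against 42, 75.7 and 1508 TPM, in which both libraries numbered 3 stood apart. The list sums were 74.8, 62.4 and 460.2 TPM against 160.0, 123 and 522 TPM for 19 neutrophil markers. They were 96.6, 97 and 2090.3 TPM against 121, 174 and 3435 TPM for 16 erythroid markers and 865, 1145 and 1745 TPM against 1474, 1387 and 2266 TPM for 25 of monocytes, macrophages and dendritic cells. Ly6c2 alone made up 679, 474 and 1101 against 1191, 577 and 1044 TPM of the last sums. It was at 4013, 7247 and 6112 TPM in BMPC, so those sums do not measure myeloid cells alone. At the same replicate number the list sums were higher in B220-2NBDG- for all 3 lists, and their part in the higher calls was not tested. None of the 19, 13 and 22 tested members was called (limma; 1, 0 and 1 higher and 0, 0 and 0 lower at an unadjusted p under 0.05, and 0, 0 and 2 higher in the weighted fit). Of 11 plasmacytoid dendritic cell markers Runx2, a transcription factor that plasma cells also express, was called higher at 0.848, 1.09 and 0.837 against 2.23, 2.42 and 2.02 TPM (0.74 ± 0.15, adjusted p = 0.011, and 0.0513 with no call when B220-2NBDG- replicate 1 was left out). Markers of mast cells, basophils and eosinophils, of which 2 were at 0 in all 6 libraries, summed to 22.4, 31 and 31 TPM against 46.3, 42.1 and 52.2 TPM. Il5ra made up 9.42, 13.2 and 6.9 against 28.3, 18.4 and 12.5 TPM of these, and was at 9.3, 41.3 and 24.8 TPM in BMPC. Platelet, mast cell and stromal lists had 5, 6 and 4 tested members and no call (limma; 0, 1 and 1 higher and 0, 0 and 0 lower at an unadjusted p under 0.05, the same counts as called in the weighted fit).

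The same B220 difference can be read in the cells with 2NBDG uptake, in 6 other libraries. B220-2NBDG+ over B220+2NBDG+ gave 11 higher calls (0.0978%) and 140 lower calls (1.24%). Of the lower calls 104 were shared, which is 36.7% of those without uptake and 74.3% of those with it, and 9 of the 11 higher calls were shared. Cdk1 had a log2 fold change of -2.30 ± 0.30 (adjusted p = 0.0021) in cells with uptake, beside -1.71 ± 0.30 without. Rrm2 had -2.31 ± 0.29 (adjusted p = 0.0021) beside -1.71 ± 0.29, and H2-Eb1 -1.47 ± 0.22 (adjusted p = 0.00437) beside -1.41 ± 0.22. Tnfrsf17 had 0.93 ± 0.14 (adjusted p = 0.00441) beside 1.25 ± 0.14, and Asns 0.61 ± 0.16 (adjusted p = 0.0983) beside 1.28 ± 0.16. In cells with uptake 45 of 60 mitosis genes, 16 of 57 S phase genes and 4 of 11 MHC class II genes were called lower, with medians of -1.41, -0.80 and -1.47. There, 2 of 30 plasma cell genes and 0 of 23 amino acid supply genes were called higher, with medians of 0.06 and 0.17.

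Whether the B220 difference itself differed between cells without and with uptake was tested as an interaction in the same limma fit, the change without uptake minus the change with it. It was called for 3 of 11246 genes (0.0267%) and reached an unadjusted p under 0.05 for 623 (5.54%). None of the 3 belongs to the lists above, and all 3 had entered the test only through the B220-2NBDG- libraries, the group where they were high. At an unadjusted p under 0.05 the interaction passed for 5 of 60 mitosis genes, 1 of 57 S phase genes, 0 of 11 MHC class II genes, 1 of 30 plasma cell genes and 3 of 23 amino acid supply genes. For single genes it was 0.59 ± 0.42 for Cdk1 (adjusted p = 0.976), 0.06 ± 0.31 for H2-Eb1 (adjusted p = 0.998), 2.07 ± 0.48 for Reg2 (adjusted p = 0.454) and 0.67 ± 0.23 for Asns (adjusted p = 0.708). A miss of the threshold does not show that the differences were equal. The satellite-like models had a median log2 fold change of 1.72 in cells with uptake and 3.55 in cells without, with 0 of 12 called for the interaction, and the Olfr genes 0.09 and 0.81, with 0 of 120 called. The Olfr medians carry the limit of the filter given above.

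**Figure D5:**
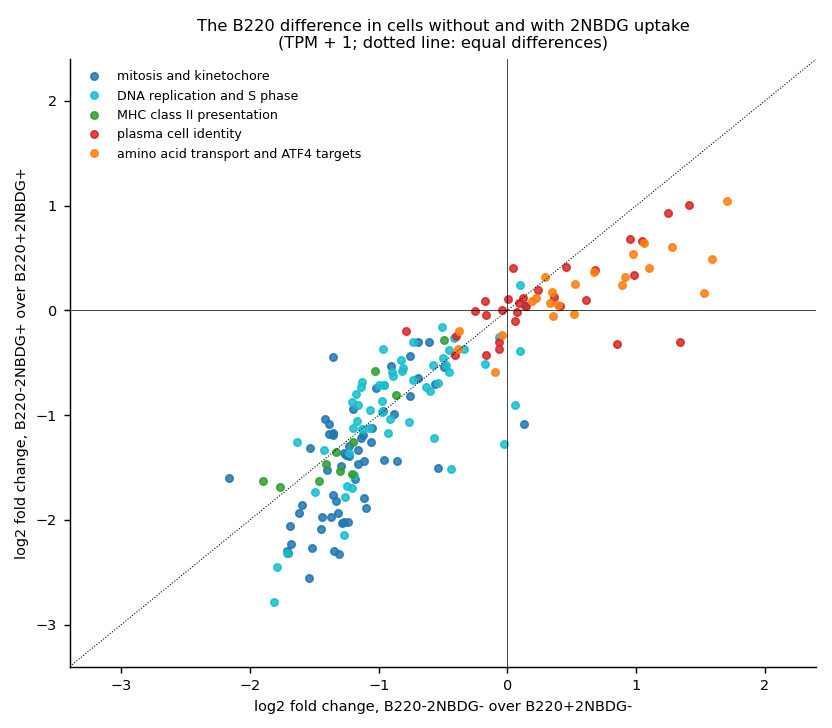
Log2 fold change (TPM + 1) of B220- over B220+ in cells without 2NBDG uptake (horizontal axis) and with it (vertical axis), 1 point per tested member of 5 gene lists, with a dotted line where both are equal. Mitosis, S phase and MHC class II genes lie mostly in the lower left, with mitosis medians of -1.25 and -1.41, and amino acid supply genes have medians of 0.52 and 0.17.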

How the data were processed

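RNA was measured in 15 libraries of sorted mouse plasma cells in 5 groups of 3. The authors quantified transcripts with Salmon 0.9.1 against GRCm38.p6, per the submitters' processing notes, and deposited TPM for 63553 transcripts, from RNA extracted with a NucleoSpin XS kit and libraries made with Clontech Smartseq and Nextera kits, per the labels' protocols. The other deposited values used are transcript length and effective length. What else the authors did is not given in the sources used here. TPM was summed per gene name, 262 immunoglobulin genes were set aside and the rest was rescaled to 1000000, which multiplied deposited values by 11.2 to 12.7 in B220+2NBDG- and by 18.2 to 19.3 in B220-2NBDG- libraries. Genes were placed with GENCODE M21, which lists 99.7% of the transcripts. Reads were estimated from TPM times effective length: values of at most 20 reads on transcripts of at least 500 nt were whole to within 0.05 for 71.7% to 73.2% of transcripts, so the depth is approximate and no count test was run.

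One limma 3.58.1 model (R 4.3.3) of the 5 group means was fitted to log2(TPM + 1) (lmFit and contrasts.fit, then eBayes with its mean-variance trend). In simulated data with 11246 genes made for this comparison it recovered 52% of genes changed 2-fold and 85% of those changed 4-fold, with 7 false calls. Changed genes were drawn only from those with a mean log2(TPM + 1) above 2. The noise was normal, with the same spread in every library for a given gene. These figures therefore do not cover changes in genes of lower level, or a library that stands apart from its group. Single shares were compared by two-sided exact permutation tests of 3 against 3. Genes were named by a rule: the 12 highest and 12 lowest called changes with at least 10 TPM in either group and no overlap, up to 3 called members of each of 34 lists or its 2 most abundant members, fixed marker genes, and called interaction genes. Immunoglobulin and T cell receptor genes, unnamed models and pseudogenes were left out of the first part. Of the 100 genes this gave the text names a part, and some items are not reported here. Top2a, Mcm5, H2-Ab1, Ciita, Cd74, Prg2, Fas, Pycr1, Phgdh, Slc7a3, Trac, Lck, Cd22, Gm10800, Gm10718, Dnajb9, Edem2, Spcs1, Eno1, Pkm, Ldha, Tcf7, Nkg7 and Eomes were named after their values were seen. The members and lists were chosen with earlier results of these data known. The labels give the same replicate numbers to each group. Deviations from the group means of same-numbered libraries of the 2 groups correlated at r = 0.214, 0.193 and 0.322, each pair's highest. The numbers may thus mark pairs, which the labels do not state. Neither the main fit nor the exact tests of shares used them, unless a test is named as in pairs. A fit with the number as a block is given where it changes a call. Promoters (RefSeq, GRCm38.p6) were matched by symbol, for 49 of 61 mitosis, 44 of 58 S phase and 8 of 11 MHC class II genes.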

Additional observations from a re-analysis of the deposited data

Results flagged for a closer look

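In limma's interaction test, 3 genes were called for a B220 difference that differed between cells without and with 2NBDG uptake. All were under 5 TPM in every library and reached the 1 TPM needed for testing only in the 3 B220-2NBDG- libraries, so they were selected by the group where they are high, and the calls support no difference between the strata. None was called at a minimum of 5 TPM. Trav6n-6, a variable segment of the T cell receptor alpha chain with near-identical copies, was found at 2.46, 2.87 and 4.01 TPM in B220-2NBDG- and was listed at 0 in all 12 other libraries, a difference of differences of 2.02 on the log2(TPM + 1) scale (adjusted p = 0.00269). Mapt, which encodes the microtubule-binding protein tau, was at 4.4, 2.57 and 2.22 TPM in B220-2NBDG- and at no more than 0.156 TPM in any other library (difference of differences 1.86, adjusted p = 0.0222). Gm3183, an unnamed gene model, was at 2.1, 1.45 and 1.46 TPM in B220-2NBDG-, at 0, 0 and 0.0478 TPM in B220+2NBDG- and at 0.635, 0.237 and 0.483 TPM in B220+2NBDG+ and at 0.361, 0 and 0 TPM in B220-2NBDG+ (difference of differences 1.77, adjusted p = 0.0222). For each, the B220-2NBDG- libraries were the highest of the series, as they were for the satellite-like gene models and the summed Olfr genes. The part of that signal in these 3 differences was not tested.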

How the results depend on the processing

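Higher and lower calls numbered 742 and 304 without a filter on low values, 191 and 244 at a minimum of 5 TPM, 239 and 211 with a pseudocount of 0.1, 367 and 250 with median-of-ratios scaling, 613 and 830 with weighted libraries, 75 and 43 among the 6 libraries alone, and 243 and 6172 on the deposited scale. Leaving out 1 library gave 140 to 282 higher and 89 to 400 lower calls. With the replicate number as a block there were 326 and 365. Beside the calls given with it above, the block ended none of the other calls named in the text. Interaction calls numbered 0 with a pseudocount of 0.1 or at 5 TPM, 26 without a filter, 80 on the deposited scale and 1 to 4 without 1 library. By list, the 6 libraries alone gave 15 mitosis, 3 S phase, 3 MHC class II and 1 amino acid supply calls, the deposited scale gave 53 S phase, 1 plasma cell and 3 amino acid supply calls, and weighted libraries gave 8 plasma cell and 12 amino acid supply calls. Without 1 library the ranges were 23 to 44 mitosis, 11 to 32 S phase, 4 to 10 MHC class II, 4 to 5 plasma cell and 2 to 7 amino acid supply calls. Xbp1 turned to -0.62 on the deposited scale. The immunoglobulin difference was -0.011 points in constant region genes alone, and the Ptprc difference -25.3 points on the 3 full-length transcripts, an alternative added after seeing the data. The cause of these shifts was not tested. Of 64 called genes named, 30 kept the call among the 6 libraries alone, where fewer samples set the spread, 51 on the deposited scale and 36 without B220-2NBDG- replicate 1, the fewest of any left-out library. With 3 libraries a group an exact test of a share cannot go below 0.1, or 0.25 in pairs.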
